A study of Mus musculus with 11 samples.

Results

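The genes described are 9 that write, oxidise or read DNA methylation: the TET dioxygenase genes Tet1, Tet2 and Tet3, the DNA methyltransferase genes Dnmt1, Dnmt3a and Dnmt3b, and the methyl reader genes Mbd1, Mbd2 and Uhrf1. They were chosen by symbol, and each of the 9 matched 1 row among the 48709 gene IDs of the count tables. RNA came from primary mouse hippocampal neurons cultured for 10 days at 20% oxygen. The hypoxia group, with 5 libraries, was then held at 1% oxygen for 4 h, and the control group, with 6 libraries, stayed at 20% oxygen and came from the same isolation. The labels name no strain, allele or drug for either group, and do not say whether the libraries of a group are separate cultures, so p-values measure only the spread between these libraries. The series title names heart failure, memory impairment and epigenetic gene expression as its subject.

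DNA methyltransferases attach a methyl group to cytosine, mostly where a guanine follows (CpG). DNMT1, guided by UHRF1 to hemimethylated DNA, copies the pattern after replication, whereas DNMT3A and DNMT3B set new marks, and neurons also carry much methylation outside CpG that DNMT3A lays down. TET enzymes oxidise methylcytosine to hydroxymethylcytosine, which is abundant in brain, and need molecular oxygen, iron and 2-oxoglutarate to do so. MBD proteins bind methylated DNA and recruit repressor complexes such as NuRD. None of these activities was measured: the values below are mRNA levels.

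After 4 h of low oxygen Tet1 rose 1.30-fold and Tet2 1.23-fold, while Mbd2 fell to 0.829 and Uhrf1 to 0.816 of their control levels. Tet3, Dnmt1, Dnmt3a, Dnmt3b and Mbd1 did not pass the threshold. Thus 2 of 9 genes were called higher and 2 lower at an adjusted p under 0.05 with edgeR, against 10.1% and 12.8% of the 16235 genes tested, or 22.9% in either direction. All 9 genes passed the filter on low counts. Their median log2 fold change was 0.01, and that of all genes tested was -0.02. In bulk RNA, fewer cells of a type and less RNA per cell cannot be told apart.

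Library totals ran from 22688096 to 31917157 counts in hypoxia and from 16619493 to 31416241 in control, the shallowest being control 1. Neuron markers summed to 6000 to 6454 CPM in hypoxia and 5952 to 6487 CPM in control, where CPM is the read count scaled to a common library size with TMM factors, and 0 of 8 were called (1 lower at an unadjusted p under 0.05), Map2 being the most abundant. The cultures also held astrocyte markers (summed 1418 to 1550 CPM in hypoxia and 1435 to 1643 CPM in control, 1 of 6 lower), oligodendrocyte lineage markers (91.1 to 120 CPM and 108 to 152 CPM, 2 of 6 lower), fibroblast markers (154 to 313 CPM and 166 to 231 CPM, 0 of 5 called), endothelial and mural markers (42.2 to 51.8 CPM and 40.5 to 46.1 CPM, 1 of 4 tested higher) and microglial markers (14.9 to 17.6 CPM and 14.9 to 17.3 CPM, 0 of 5 tested called). At an unadjusted p under 0.05, 3 astrocyte and 2 oligodendrocyte lineage markers were lower and 0 of either list higher. Of the endothelial and mural markers 1 was higher and 1 lower, 1 microglial marker was higher, and 0 fibroblast markers passed. DESeq2 and limma voom also called 0 of the neuron, fibroblast and microglial markers. The called markers were Aqp4 (115 ± 7.78 CPM in hypoxia and 132 ± 12.4 CPM in control), Olig1, Olig2 and the mural gene Pdgfrb (21.4 ± 3.39 CPM in hypoxia and 14.5 ± 1.35 CPM in control), and Col3a1 and Aif1 were the most abundant of the fibroblast and microglial lists. Olig1 and Pdgfrb were called under all 19 alternatives, Aqp4 under 12 (adjusted p up to 0.0774) and Olig2 under 7 (up to 0.113). The defining markers P2ry12, Cldn5 and Tek were too low to be tested. All 6 genes used to check the exposure were higher in hypoxia, among them Vegfa, a vascular growth factor gene, at 286 ± 16.2 CPM in hypoxia and 141 ± 29.3 CPM in control, and the glucose transporter gene Slc2a1, at 66.7 ± 3.67 CPM in hypoxia and 22.6 ± 5.04 CPM in control (SD, n = 5 and 6). On the second principal component, with 18.4% of the variance, hypoxia 5 scored -18.5 and the other hypoxia libraries 1.21 to 10.3, whereas control 5 scored -18.6, control 6 scored -12.4 and the other controls -5.92 to 24.1.

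RefSeq start regions are shown for the TET genes and, beside them, for Uhrf1, because Tet1 and Tet2 rose and Uhrf1 fell under low oxygen. The core of the motif bound by hypoxia-inducible factors can be looked for in them. Each is the RefSeq window of 300 bases, 250 before to 50 after an annotated start, on the gene's strand in build GRCm38.p6. Capitals mark ACGTG or GCGTG on either strand, and the E-box CACGTG contains ACGTG on both strands.
Tet1: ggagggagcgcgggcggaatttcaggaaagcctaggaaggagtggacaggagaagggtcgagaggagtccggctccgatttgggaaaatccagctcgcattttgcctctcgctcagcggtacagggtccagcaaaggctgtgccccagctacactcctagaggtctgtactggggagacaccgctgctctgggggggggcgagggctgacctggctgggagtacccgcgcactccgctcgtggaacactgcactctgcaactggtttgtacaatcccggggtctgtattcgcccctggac
Tet2: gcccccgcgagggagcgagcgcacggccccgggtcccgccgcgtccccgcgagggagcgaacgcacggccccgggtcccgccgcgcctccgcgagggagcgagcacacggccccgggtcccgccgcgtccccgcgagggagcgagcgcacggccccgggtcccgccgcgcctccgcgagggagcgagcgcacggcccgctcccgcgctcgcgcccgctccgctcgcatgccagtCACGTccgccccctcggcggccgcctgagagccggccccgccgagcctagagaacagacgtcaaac
Tet3: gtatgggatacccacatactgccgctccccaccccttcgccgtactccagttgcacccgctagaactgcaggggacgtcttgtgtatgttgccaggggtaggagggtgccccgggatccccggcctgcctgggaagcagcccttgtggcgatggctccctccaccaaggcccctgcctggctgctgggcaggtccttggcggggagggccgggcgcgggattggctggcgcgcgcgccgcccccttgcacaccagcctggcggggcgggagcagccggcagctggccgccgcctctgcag
Uhrf1 start 2: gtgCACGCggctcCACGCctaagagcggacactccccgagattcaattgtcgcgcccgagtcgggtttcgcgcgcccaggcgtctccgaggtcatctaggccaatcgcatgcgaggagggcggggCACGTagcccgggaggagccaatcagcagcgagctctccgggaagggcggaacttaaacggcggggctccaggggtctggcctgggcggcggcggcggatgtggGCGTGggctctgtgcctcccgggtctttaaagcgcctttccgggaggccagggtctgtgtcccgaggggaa

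These windows lie at chr10:62887275-62887574 (minus strand) for Tet1, chr3:133544341-133544640 (minus) for Tet2, chr6:83441629-83441928 (minus) for Tet3 and chr17:56304063-56304362 (plus) for the downstream of the 2 Uhrf1 starts. Tet2 held 1 match, which began at base -16 from the start. The windows of Tet1 and Tet3 held 0. Genes on the minus strand begin at their higher coordinate, which in GENCODE M21 is 62908996 for Tet1 and 83459084 for Tet3. Both windows lie inside those genes, and the bases around the GENCODE starts were not searched. The Tet2 window lies nearer to the GENCODE start of its gene, at 133545139. The Uhrf1 window held 4, at -247, -237, -125 and -21, and the window of its upstream start held 0. Among all 32851 RefSeq windows, 43.8% held at least 1 match, so a match in these genes is a description of the letters only. CpG density also differed: the Tet2 window held 57 CpGs, against 17 in Tet1, 22 in Tet3, 33 in the Uhrf1 window shown and a median of 7 over all windows. Of the 9 genes, 7 matched the RefSeq table, with 12 start windows, 4 of which held the motif. Besides those of Tet2 and Uhrf1, they were windows of Dnmt1 and Dnmt3a, which did not pass the threshold. The window of start 3 of Dnmt1 held 1 match, and that of start 3 of Dnmt3a held 2, both within an E-box CACGTG.

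Tet1 (ENSMUSG00000047146, chromosome 10, 62804570 to 62908996, minus strand, GENCODE M21 on GRCm38, the mm10 sequence) encodes a TET enzyme with a CXXC domain that binds CpG-rich DNA. It stood at 94.4, 102, 107, 104 and 105 CPM in the hypoxia libraries, against 69.1, 78.2 and 86.2 CPM (lowest, median and highest) in control. Every hypoxia library lay above every control library. The log2 fold change was 0.38 with an SE of 0.05 (95% interval 0.27 to 0.50, adjusted p = 0.000108). That change lies above the 95th percentile of all genes tested, which was 0.31. The groups did not overlap in 14.0% of all genes tested. In the authors' deposited table, Tet1 is listed with a log2 fold change of 0.40 and an adjusted p of 7.70e-10.

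Tet2 (ENSMUSG00000040943, chromosome 3, 133463679 to 133545139) encodes the TET enzyme that lacks a CXXC domain of its own. Its hypoxia libraries held 76.1, 80.9, 87.1, 76.2 and 55.8 CPM, and its control libraries 51.0, 60.6 and 67.7 CPM (lowest, median and highest). Hypoxia 1 to 4 were above all controls, and hypoxia 5 lay inside the control range. On the log2 scale this was a change of 0.30 with an SE of 0.09 (95% interval 0.11 to 0.50, adjusted p = 0.0247). Without hypoxia 5 it was 0.40 (adjusted p = 0.000515). The call was lost without control 3, control 4, hypoxia 1, hypoxia 2 or hypoxia 3, at adjusted p = 0.0517, 0.0509, 0.0526, 0.0641 and 0.0779. The 3 libraries with the most negative scores on the second component were control 5, the lowest control at 51.0 CPM, hypoxia 5, and control 6, which stood near the control median at 61.0 CPM. The part of that difference between libraries in the Tet2 result was not tested. A stretch of 43 exonic bases is shared with the antisense gene Gm42567, which held 22 counts over all 11 libraries.

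Tet3 (ENSMUSG00000034832, chromosome 6, 83362373 to 83459084) also encodes a TET enzyme, and it was the most abundant of the 3 per length. It stood at 160, 163, 160, 156 and 168 CPM in hypoxia, against 127, 145 and 169 CPM (lowest, median and highest) in control. The control libraries spread widely and their highest value lay above every hypoxia library. With edgeR the change was 0.13 in log2 units with an SE of 0.06 (95% interval 0.006 to 0.25), and it did not pass the threshold (adjusted p = 0.125). The authors' deposited table lists Tet3 as higher, with a log2 fold change of 0.16 and an adjusted p of 0.00631. DESeq2 run on the counts here gave 0.14 and an adjusted p of 0.0736. Without control 6, the highest control library, the edgeR value was 0.17 (adjusted p = 0.0233).

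**Figure D1:**
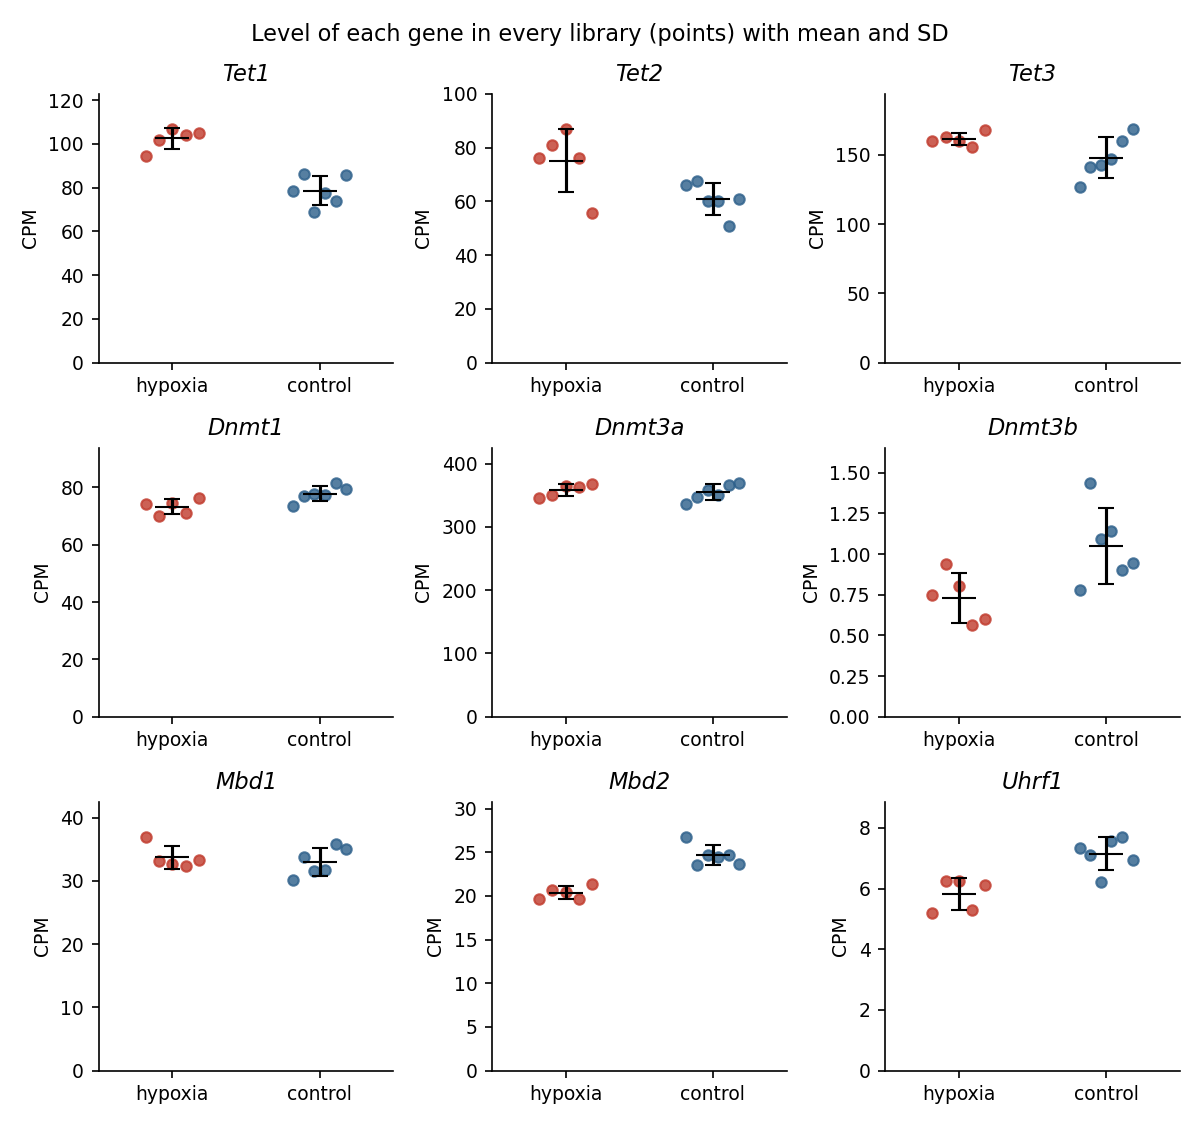
CPM (y axis, from 0 in each panel) of each of the 9 genes in the 5 hypoxia libraries (red points) and 6 control libraries (blue points), with the mean and SD in black. For Tet1 all red points lie above all blue ones, for Mbd2 all lie below, and hypoxia 5 stands at 55.8 CPM for Tet2, inside the control range.

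Whether the TET genes changed to different degrees was asked with the ratio of their counts within a library, which needs no scaling between libraries. The log2 ratio of Tet1 to Tet3 was -0.76, -0.68, -0.58, -0.58 and -0.68 in hypoxia, and averaged -0.66 ± 0.07 there and -0.91 ± 0.17 in control (SD, n = 5 and 6), with control libraries from -1.11 to -0.69, so that the groups overlapped. The difference of 0.25 had an SE of 0.08 (2-sided exact permutation p = 0.0216, adjusted p = 0.0416 over 8 gene pairs). This call was lost without any of 7 single libraries (control 3, 4, 5 or 6, or hypoxia 3, 4 or 5), at adjusted p-values of up to 0.0914. The Tet1 to Tet2 ratio differed by 0.09 with an SE of 0.13 (exact permutation p = 0.539) and the Tet2 to Tet3 ratio by 0.16 with an SE of 0.16 (exact permutation p = 0.333), neither past the threshold. With 1 library left out they ran from -0.02 to 0.13 and from 0.09 to 0.28, with -0.02 and 0.28 both reached without hypoxia 5. Per kb of exon, Tet1 made up 31.9 ± 1.31% of the summed TET level in hypoxia and 28.9 ± 1.60% in control, Tet2 21.4 ± 2.90% and 20.6 ± 2.27%, and Tet3 46.6 ± 2.20% and 50.4 ± 3.51% (SD, n = 5 and 6).

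The DNA methyltransferase genes did not pass the threshold. Dnmt3a (ENSMUSG00000020661, chromosome 12, 3806007 to 3914443), the de novo enzyme of mature neurons, was the most abundant of the 9 genes per length. It stood at 345, 351, 364, 363 and 368 CPM in hypoxia, against 336, 355 and 370 CPM (lowest, median and highest) in control. The groups lay on top of each other. Its log2 fold change was 0.01 with an SE of 0.03, and the 95% interval of -0.06 to 0.08 allows a ratio of hypoxia to control between 0.959 and 1.06 (adjusted p = 0.855). Dnmt3a shares 133 exonic bases with the antisense gene Dnmt3aos, which held 14 counts over all libraries.

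Dnmt1 (ENSMUSG00000004099, chromosome 9, 20907209 to 20959888), the maintenance enzyme, stood at 74.2, 70.1, 74.6, 71.1 and 76.5 CPM in hypoxia, against 73.6, 77.6 and 81.7 CPM (lowest, median and highest) in control. The ranges overlapped in part. The log2 fold change was -0.09 with an SE of 0.04 (95% interval -0.17 to -0.0076, adjusted p = 0.109). Relative to Dnmt3a in the same library, Dnmt1 was lower in hypoxia: the log2 ratio averaged -2.29 ± 0.05 in hypoxia and -2.19 ± 0.02 in control (SD, n = 5 and 6). This difference of -0.10, with an SE of 0.02, passed the test (exact permutation p = 0.00433, adjusted p = 0.0173), and the call was lost without control 4 or control 5 (adjusted p = 0.0635 for each).

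Dnmt3b (ENSMUSG00000027478, chromosome 2, 153649450 to 153687730), the de novo enzyme best known from early embryos, was low. It held 17, 25, 20, 14 and 19 counts in the hypoxia libraries and 13 to 39 counts in the control libraries, or 0.732 ± 0.154 CPM in hypoxia and 1.05 ± 0.232 CPM in control (SD, n = 5 and 6). The groups overlapped. On the log2 scale this was a change of -0.54 with an SE of 0.19, a wide interval of -0.95 to -0.13, and an adjusted p of 0.0538. Without control 1 or hypoxia 2 the adjusted p was 0.0406 and 0.0443. The log2 ratio of Dnmt3a to Dnmt3b was 8.92 ± 0.32 in hypoxia and 8.40 ± 0.30 in control, a difference of 0.52 with an SE of 0.19 (exact permutation p = 0.0238, adjusted p = 0.0416). That call was lost without any of 9 single libraries (all but control 1 and hypoxia 2), at adjusted p-values of up to 0.0914. The Dnmt1 to Dnmt3b ratio differed by 0.42 with an SE of 0.19 (exact permutation p = 0.0498, adjusted p = 0.0664).

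**Figure D2:**
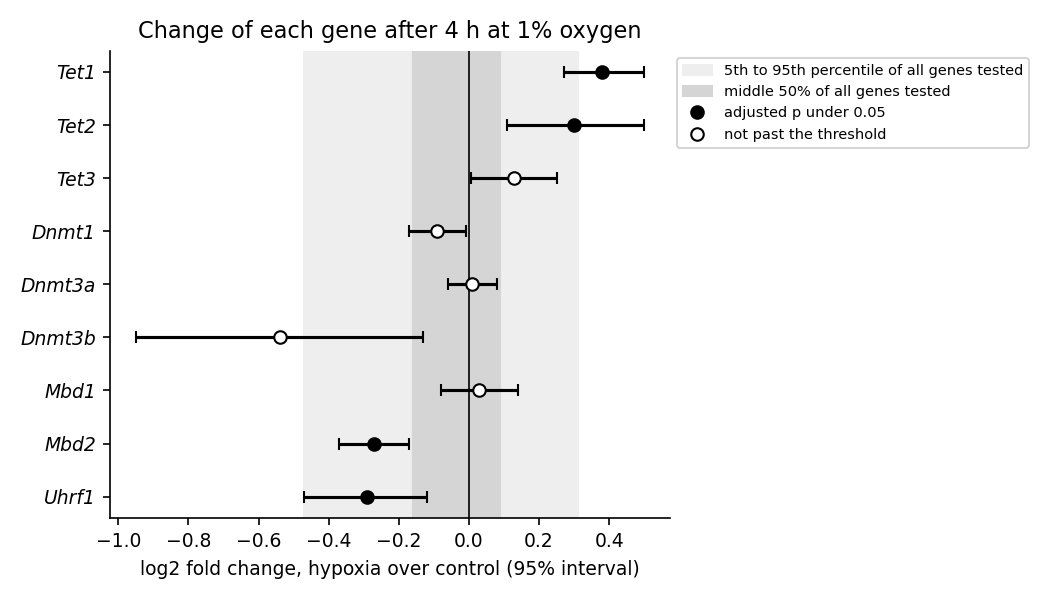
Log2 fold change of each gene, hypoxia over control (x axis), with its 95% interval from edgeR, filled where the adjusted p was under 0.05 and open where it was not. Tet1 and Tet2 lie right of 0 and Mbd2 and Uhrf1 left of it, Dnmt3a lies at 0.01 with the narrowest interval, and Dnmt3b has the widest, from -0.95 to -0.13; shading gives the spread of all genes tested.

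Among the readers, Mbd2 (ENSMUSG00000024513, chromosome 18, 70568189 to 70626131), which joins methylated DNA to NuRD, fell. It stood at 19.7, 20.7, 20.5, 19.7 and 21.4 CPM in hypoxia, against 23.6, 24.6 and 26.8 CPM (lowest, median and highest) in control. Every hypoxia library was below every control library. With edgeR the change was -0.27 in log2 units with an SE of 0.05 (95% interval -0.37 to -0.17, adjusted p = 0.000683). The authors' deposited table lists it with a log2 fold change of -0.26 and an adjusted p of 6.34e-05.

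Mbd1 (ENSMUSG00000024561, chromosome 18, 74267605 to 74282732), a reader that also carries CXXC domains, stood at 37.0, 33.2, 32.6, 32.4 and 33.3 CPM in hypoxia, against 30.1, 32.8 and 35.8 CPM (lowest, median and highest) in control. Hypoxia 1 was the highest library of all, and the other 4 lay within the control range. The log2 fold change was 0.03 with an SE of 0.05 (95% interval -0.08 to 0.14, adjusted p = 0.770). The log2 ratio of Mbd1 to Mbd2 was 0.91, 0.68, 0.67, 0.72 and 0.63 in hypoxia and 0.16 to 0.56 in control, with no overlap. The difference of 0.30 had an SE of 0.08 (exact permutation p = 0.00433, adjusted p = 0.0173). The call was lost without control 4, control 5 or hypoxia 1, at adjusted p = 0.0635, 0.0635 and 0.0508. The groups stay apart whichever library is left out, and each such test has fewer arrangements of the labels. These losses therefore cannot show that the result rests on those libraries.

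Uhrf1 (ENSMUSG00000001228, chromosome 17, 56303321 to 56323486), whose protein reads hemimethylated CpGs and brings DNMT1 to newly copied DNA, fell. Its counts were low, from 118 to 193 in hypoxia and from 123 to 239 in control. It stood at 5.18, 6.25, 6.24, 5.30 and 6.10 CPM in hypoxia, against 6.21, 7.23 and 7.71 CPM (lowest, median and highest) in control. Hypoxia 2 and hypoxia 3 lay just above the lowest control library, and the other hypoxia libraries lay below all controls. On the log2 scale this was a change of -0.29 with an SE of 0.08 (95% interval -0.47 to -0.12, adjusted p = 0.0165), and the authors' deposited table gives -0.28 with an adjusted p of 0.0259. The Dnmt1 to Uhrf1 ratio was higher in hypoxia, at a log2 ratio of 3.66 ± 0.14 in hypoxia and 3.44 ± 0.12 in control (difference 0.21, SE 0.08, exact permutation p = 0.0260, adjusted p = 0.0416). That call was lost without any of 9 single libraries (all but control 3 and hypoxia 2).

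Uhrf1 is used most by cells that copy their DNA, so markers of dividing cells are given beside it. Of 10 such markers, 0 passed the threshold with edgeR, DESeq2 or limma voom, while 5 were lower and 0 higher at an unadjusted p under 0.05. With edgeR, 1 was called lower with the replicate block and without control 1, control 6 or hypoxia 5, and 2 without control 3. Their median log2 fold change was -0.16, and their summed level was 126 to 154 CPM in hypoxia and 138 to 173 CPM in control. Top2a, the most abundant, stood at 37.8 ± 4.11 CPM in hypoxia and 40.5 ± 4.90 CPM in control (adjusted p = 0.460). Of the oligodendrocyte lineage markers, Olig1 fell to 40.4 ± 3.23 CPM in hypoxia, against 54.0 ± 9.21 CPM in control (adjusted p = 0.00427), and Olig2 to 13.3 ± 2.14 CPM in hypoxia, against 18.2 ± 4.55 CPM in control (adjusted p = 0.0440). The Olig2 call was lost with DESeq2, limma voom, RLE scaling, the robust prior and without any of 8 single libraries (control 1, 2, 4 or 5, or hypoxia 1, 2, 4 or 5). The part of either cell population in the Uhrf1 and Mbd2 results was not tested.

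**Figure D3:**
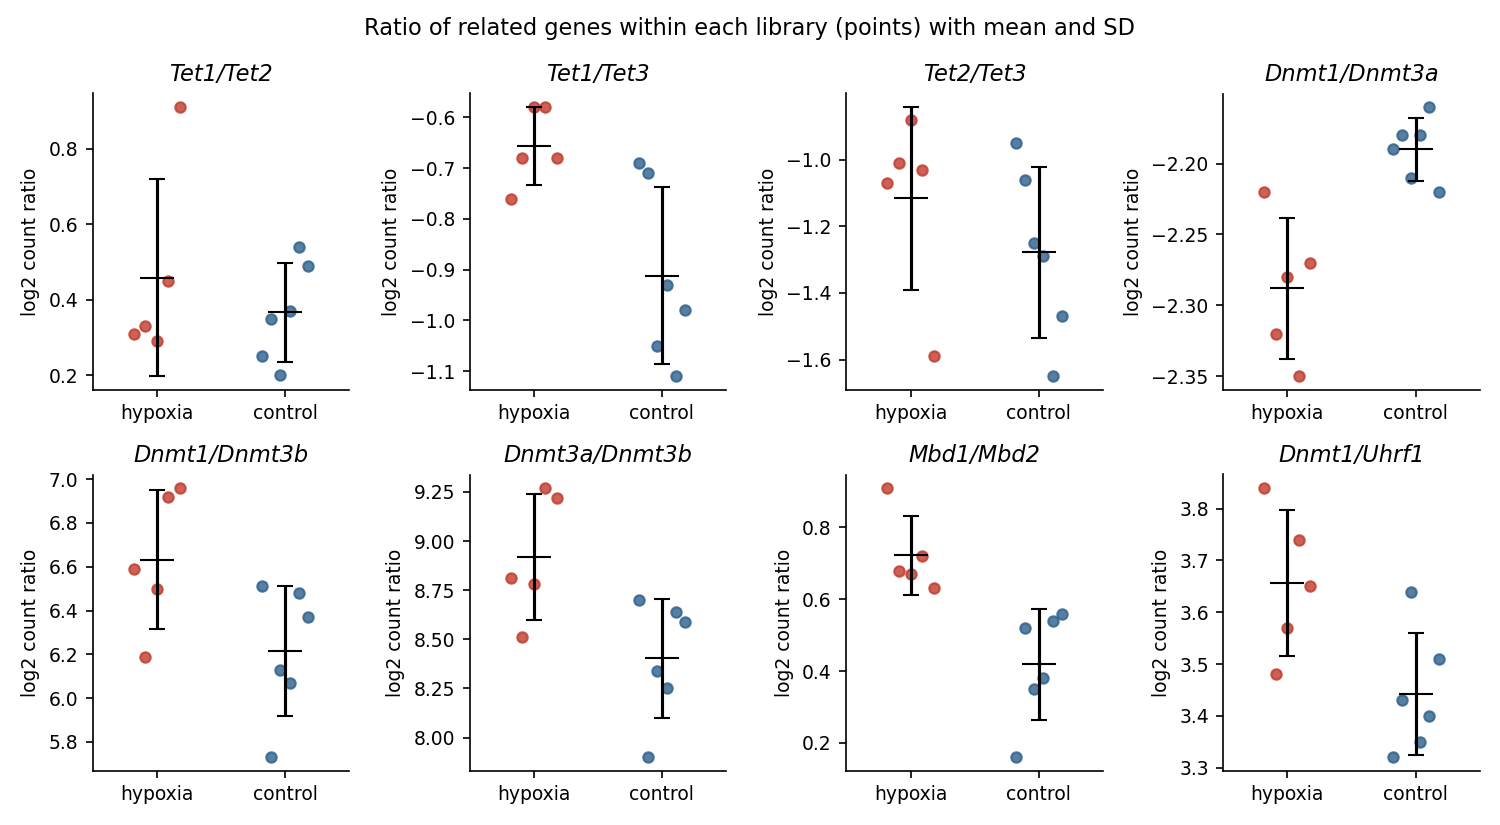
Log2 ratio of the counts of related genes within each library (y axis), in hypoxia (red) and control (blue), with the mean and SD in black. For Mbd1 to Mbd2 all red points lie above all blue ones, and hypoxia 5 stands apart for Tet1 to Tet2 at 0.91 and for Tet2 to Tet3 at -1.59.

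Levels were compared between genes per kb of merged GENCODE M21 exons, which understates genes whose annotated exons are largely unused in these cells. In hypoxia the order was Dnmt3a at 21.5 ± 0.590, Dnmt1 at 9.94 ± 0.357, Tet3 at 9.67 ± 0.273, Tet1 at 6.62 ± 0.308, Mbd2 at 6.35 ± 0.230, Mbd1 at 5.03 ± 0.280, Tet2 at 4.46 ± 0.696, Uhrf1 at 1.36 ± 0.125 and Dnmt3b at 0.143 ± 0.0301 CPM per kb (SD, n = 5). The ranges of neighbouring genes overlapped for Dnmt1 and Tet3, Tet1 and Mbd2, and Mbd1 and Tet2. In control Mbd2 stood before Tet1, at 7.67 ± 0.367 and 5.08 ± 0.428 CPM per kb (SD, n = 6), and their ranges did not overlap. The control order was otherwise the same. There the ranges overlapped for Dnmt1 and Tet3, Tet3 and Mbd2, and Tet1 and Mbd1.

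**Figure D4:**
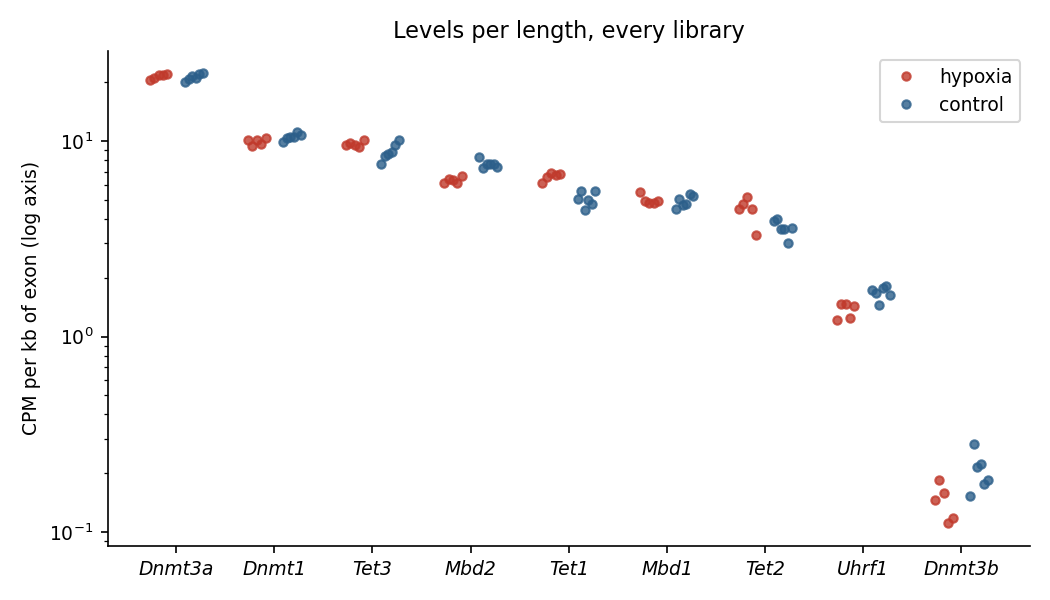
Level of each gene per kb of exon (y axis, log scale, CPM per kb) in every hypoxia (red) and control (blue) library, ordered by the control mean. Dnmt3a stands highest at about 21.5 in hypoxia, Dnmt3b lowest at 0.143, and Tet1 and Mbd2 change places between the groups.

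Over the 11 libraries, the genes whose standardised log2 CPM profile lay nearest to a called gene were found by root mean square distance among the 16235 tested. For Tet1 they were Jmy, which encodes an actin nucleator that also binds p300, at a distance of 0.167, the phosphoinositide kinase subunit gene Pik3r1 at 0.192 and Piga, which acts in anchor lipid synthesis, at 0.203. For Tet2 they were Cttnbp2, which encodes a cortactin-binding protein, at 0.207, the myosin phosphatase subunit gene Ppp1r12a at 0.229 and the predicted gene Gm43662 at 0.255. The log2 fold changes of Cttnbp2 and Ppp1r12a were 0.11 and 0.13, and neither passed the threshold (adjusted p = 0.159 and 0.131), whereas Gm43662 did, at 0.91 (adjusted p = 0.0152). For Mbd2 the nearest were the nociceptin receptor gene Oprl1 at 0.196, the glycosyltransferase gene Mgat4a at 0.222 and the NAD kinase gene Nadk at 0.237. For Uhrf1 they were farther away, with the ribosomal protein gene Rpl36a at 0.307, Arhgap31 at 0.323 and Tril at 0.343. These distances describe shared patterns over the same libraries and carry no test.

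Beyond the 9 genes, 7 lists of genes linked to DNA methylation held 86 tested genes, many of which also have other roles. Of the 86, 8 were higher and 7 lower in hypoxia, with a median log2 fold change of 0.002. With edgeR and TMM factors, neither share is larger than the 10.1% and 12.8% of all genes tested. RLE scaling, DESeq2 and limma voom called 11, 12 and 10 of the pathway genes higher, and 7 lower each. Among all genes they called 1872, 2019 and 1670 higher. Among 9 other methyl-CpG readers 1 was higher and 0 were lower (median 0.06): the zinc finger reader gene Zbtb38 rose to 29.1 ± 1.54 CPM in hypoxia, against 25.5 ± 0.936 CPM in control (SD, n = 5 and 6, adjusted p = 0.00857).

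Of 13 tested cofactors and targeting factors of the methyltransferases, 2 were higher and 3 lower (median -0.0051). Setd2 and Nsd1 encode the histone methyltransferases whose H3K36 marks draw DNMT3 enzymes. Setd2 rose to 168 ± 6.76 CPM in hypoxia, against 140 ± 3.63 CPM in control (adjusted p = 4.96e-05), and Nsd1 to 327 ± 10.8 CPM in hypoxia, against 285 ± 11.6 CPM in control (adjusted p = 0.000758). Atf7ip, a partner of SETDB1, fell (log2 fold change -0.14, adjusted p = 0.00550), as did Zfp57, which protects methylation at imprinted regions (-0.25, adjusted p = 0.00796). The chromatin remodeller gene Hells, needed for methylation of repeats, was also lower, at 6.35 ± 0.904 CPM in hypoxia and 8.39 ± 0.822 CPM in control (log2 fold change -0.39, adjusted p = 0.00803).

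Of 13 tested TET partners and CXXC proteins, 2 were higher and 1 lower with edgeR (median -0.02), and 5 and 1 at an unadjusted p under 0.05. RLE scaling and DESeq2 each called 4 higher, and limma voom 3. Kdm2a, a CXXC protein and histone demethylase gene, stood at 155 to 163 CPM in hypoxia, against 121 to 134 CPM in control, with no overlap (log2 fold change 0.35, SE 0.03, adjusted p = 2.96e-06). Dcaf1, a substrate receptor of the ubiquitin ligase reported to act on TET proteins, rose 1.17-fold (adjusted p = 0.000849). Cxxc4, the neighbour of Tet2 that carries the CXXC domain Tet2 lost, fell to 13.5 ± 1.88 CPM in hypoxia, against 16.4 ± 0.555 CPM in control (adjusted p = 0.0165), and hypoxia 4 at 16.3 CPM lay within the control range. This call was lost without hypoxia 2 (adjusted p = 0.0588).

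Of 14 tested genes of base excision repair and cytosine deamination, 0 were higher and 1 was lower (median -0.05). That gene was Ung, a uracil glycosylase, at 1.71 ± 0.284 CPM in hypoxia and 2.48 ± 0.424 CPM in control (adjusted p = 0.0129). Tdg, which removes the oxidised bases that TET enzymes make, stood at 1.65 ± 0.252 CPM in hypoxia and 1.28 ± 0.186 CPM in control, a log2 difference of 0.38 (SE 0.15) that did not pass the threshold (adjusted p = 0.0688).

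Of 13 NuRD genes, 2 were higher and 1 lower (median 0.0049). The subunit genes Gatad2b and Mta3 rose 1.08-fold and 1.11-fold (adjusted p = 0.0241 and 0.0463), and the remodeller gene Chd4 fell to 210 ± 5.08 CPM in hypoxia, against 226 ± 6.53 CPM in control (adjusted p = 0.0203). Each of these 3 calls was lost under some alternative, at adjusted p-values of up to 0.102, 0.101 and 0.139.

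In the supply of methyl groups, 1 of 9 tested genes was higher and 0 were lower (median 0.02). With no filter on low counts, a mean CPM of at least 1 or the replicate block, 1 gene was called lower. The same count was reached without control 5, control 6 or hypoxia 3. Mtrr, which restores methionine synthase, rose 1.16-fold (adjusted p = 0.0153), and Mat2a, the synthase of the methyl donor S-adenosylmethionine, stood at 152 ± 9.01 CPM in hypoxia and 172 ± 17.8 CPM in control (adjusted p = 0.0502). Of 15 enzymes that handle the TET substrate 2-oxoglutarate and its competitors, 0 were higher and 1 was lower with edgeR (median -0.0063), and 1 and 2 at an unadjusted p under 0.05. DESeq2 called 1 higher and 1 lower.

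**Figure D5:**
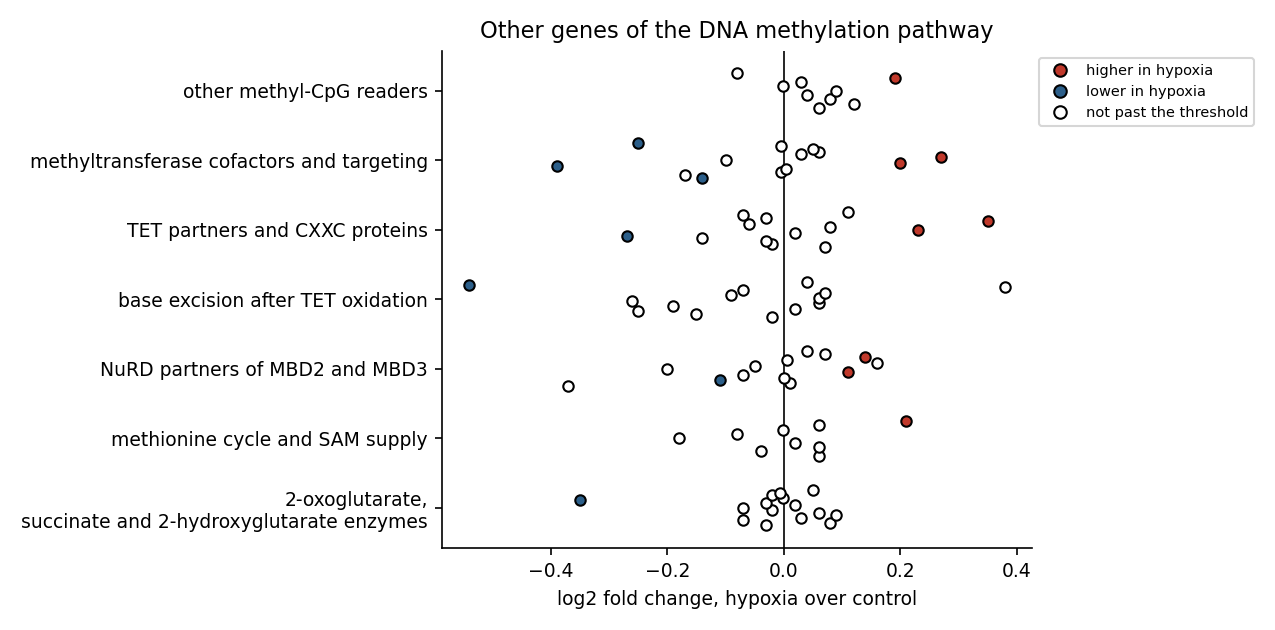
Log2 fold change, hypoxia over control (x axis), of each tested gene of 7 lists of genes linked to DNA methylation (rows), red where called higher, blue where called lower and open where not past the threshold. Most points lie near 0, with Kdm2a at 0.35, Hells at -0.39 and Ung at -0.54 among the called genes farthest from it.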

How the data were processed

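Per the labels' protocols, polyA RNA was sequenced as 50 bp single reads from TruSeq v2 libraries. The authors deposited whole-number read counts per Ensembl gene ID, not normalized. Per the submitters' processing notes, STAR 2.5.2b, featureCounts and Subread 1.5.1 were used on mm10, with DESeq2 also named. For the annotation release, strand setting and multi-mapped reads, nothing is stated in the sources used here. Per the file headers, the authors deposited log2 fold changes and adjusted p-values for the genes they listed, together with a normalized signal per library, which was not used here.

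Symbols were matched for 48349 of 48709 IDs. Counts were tested with edgeR 4.0.16 in R 4.3.3: filterByExpr by group, TMM factors and the quasi-likelihood F test, 2-sided, on all 16235 genes that passed, which held 99.9% of counts, with Benjamini-Hochberg adjustment over all of them and a threshold of 0.05. Each SE was computed as the absolute log2 fold change divided by the square root of F. Ratios of gene pairs used log2 of count plus 0.5 and an exact permutation test with 462 arrangements of the group labels, adjusted over 8 pairs. Intervals and tests cover the spread of these libraries; no 2 libraries of a group agreed within sampling noise. Scripts were tested on simulated data.

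Of each list, the text names up to 4 called genes with the smallest p-values, or the most abundant gene if it had no call, and for each called gene of the 9 the 3 nearest profiles. P2ry12, Cldn5, Tek, Hells, Tdg and Mat2a were named after their values were seen. Some genes of these lists enter the counts and are not reported here by name. The members and lists were chosen with earlier results of these data known. Alternatives were other scalings, DESeq2 1.42.0, limma 3.58.1 voom, other filters, a robust prior, the replicate number as a block, and leaving out each library. The labels do not say that the replicate numbers pair the libraries, so the fit has no block.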

Additional observations from a re-analysis of the deposited data

Results flagged for a closer look

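Among 34 groups of library values checked with Dixon's test (9 genes and 8 ratios, in hypoxia and control), 4 held a library that stood apart from the rest, and chance flags about 1 in 20. Mbd1 in hypoxia 1 was at 37.0 CPM, with the other hypoxia libraries at 32.4 to 33.3 CPM. Mbd2 in control 1 was at 26.8 CPM, with the other controls at 23.6 to 24.7 CPM. Control 1 is also the shallowest library, with 16619493 counts.

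In hypoxia 5 the log2 ratio of Tet1 to Tet2 was 0.91, with the other hypoxia libraries at 0.29 to 0.45, and that of Tet2 to Tet3 was -1.59, with the others at -1.07 to -0.88. Both ratios hold Tet2, which stood at 55.8 CPM in this library.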

How the results depend on the processing

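Over 19 alternatives, Tet1, Mbd2 and Uhrf1 were called under each, with log2 fold changes of 0.35 to 0.41, -0.29 to -0.23 and -0.33 to -0.26 and adjusted p-values of up to 0.000757, 0.00642 and 0.0496. Tet2 was called under 14, at 0.24 to 0.40 and adjusted p-values of up to 0.0779. Tet3 and Dnmt3b were each called under 2, and Dnmt1, Dnmt3a and Mbd1 under 0. A mean CPM of at least 1 removed Dnmt3b before the test.

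With 1 library left out, 1 to 3 of the 9 genes were called higher and 2 to 3 lower. Of the genes in the 7 lists, 6 to 13 were called higher, the 13 without control 1. The difference in log2 ratio then ran from 0.21 to 0.30 for Tet1/Tet3, -0.02 to 0.13 for Tet1/Tet2, 0.09 to 0.28 for Tet2/Tet3, -0.12 to -0.08 for Dnmt1/Dnmt3a, 0.32 to 0.53 for Dnmt1/Dnmt3b, 0.42 to 0.62 for Dnmt3a/Dnmt3b, 0.25 to 0.33 for Mbd1/Mbd2 and 0.17 to 0.26 for Dnmt1/Uhrf1. Dnmt1/Dnmt3b gained its call without hypoxia 2, Tet1/Tet2 and Tet2/Tet3 had none to lose, and the rest lost theirs without some libraries; each such test has fewer samples.

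Same-numbered hypoxia and control libraries deviated from their group means with correlations of -0.103, 0.141, -0.0574, -0.0636 and 0.306. Libraries of unlike numbers gave -0.269 to 0.194. Of the 5 hypoxia libraries, 2 correlated best with their own number. So few correlations cannot decide whether the numbers are a pairing. With the number as a replicate block, 3 of the 9 genes were higher and 2 lower, the addition being Tet3 at 0.17 (adjusted p = 0.0243). In the paired form of the ratios, the differences were 0.24 for Tet1/Tet3, -0.10 for Dnmt1/Dnmt3a, 0.56 for Dnmt3a/Dnmt3b, 0.33 for Mbd1/Mbd2 and 0.23 for Dnmt1/Uhrf1, and none of the 8 pairs could pass, since 5 pairs allow no p below 0.0625. Depth limits Dnmt3b most, at 13 to 39 counts a library.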
